A study of Mus musculus with 64 samples.

Results

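The comparison described here sets mouse natural killer (NK) cells that had received tumor-cell conditioned medium (CM) against untreated NK cells, both lacking the prostaglandin E2 (PGE2) receptor EP2 and both activated through NK1.1. Its members are 8 of the 64 RNA-seq libraries of the study, chosen by their titles: 4 EP2KO libraries with CM and anti-NK1.1 and 4 EP2KO libraries with anti-NK1.1 alone. NK cells came from spleens and were cultured for 5 days with IL-2 and IL15:IL15Ra, each at a low dose. EP2KO cells are labelled EP2-deficient, and the study design lists Ptger2-/-Ptger4 fl/fl mice. The cells of both groups are therefore taken to lack EP2 and to carry floxed but uncut Ptger4 (the gene of EP4), although no label gives the Ptger4 allele of a sample. CM was taken from control BRAFV600E cells that make PGE2; it was given for 1 h alone and then for 4 h together with the antibody, and the controls received the antibody for the same 4 h. The other groups used for contrast were C57BL/6J cells (WT), cells of GzmbCre Ptger2-/-Ptger4 fl/fl mice (EP2/EP4KO), in which the granzyme B promoter drives Cre, unstimulated EP2KO cells with or without CM, and stimulated EP2KO cells given PGE2 at 100 ng/ml. The labels do not say whether replicates came from separate animals or cultures, so the p-values measure only the spread between these libraries, which may be technical. The CM also holds whatever else the tumor cells release, and medium from cells that make no PGE2 was not analysed here.

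EP2 and EP4 are the PGE2 receptors that couple to the stimulatory G protein. They raise cyclic AMP, which activates protein kinase A (PKA), which phosphorylates CREB at promoters of its target genes, and phosphodiesterases break the cyclic AMP down again. NK1.1, encoded by Klrb1c in C57BL/6 mice, is an activating NK receptor whose crosslinking induces cytokines, chemokines and granule exocytosis, and cyclic AMP is known to dampen such responses in lymphocytes.

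The 4 CM libraries held 1172526 to 1461464 counts and the 4 untreated libraries 1316471 to 1493052. Untreated replicate 4 stood apart from the other untreated libraries. On the leading principal component of the 8 libraries, which carried 29.3% of the variance, it lay at -6.10, against -25.9 to -25.1 for the other untreated libraries and 13.1 to 31.1 for the CM libraries. Of the genes lower with CM, 78.9% had their lowest untreated value in that library (500 of 634), so most such genes had their smallest gap there. Counts of list members without it are given in this text where they differ by 2 or more. The 3' tags of Ptger2 averaged 9.67 ± 3.45 CPM (counts scaled to library size; SD, n = 4) in untreated stimulated EP2KO cells and 25.2 ± 9.48 in WT cells (n = 4). Ptger4 averaged 73.8 ± 4.93 CPM in EP2/EP4KO cells (n = 3) and 55.6 ± 11.5 in EP2KO cells. A tag at the 3' end can lie outside the deleted part of a gene, so neither value checks a genotype label.

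CM changed the expression of 1117 of 10723 tested genes in stimulated EP2KO cells, or 10.4% (adjusted p under 0.05, edgeR quasi-likelihood test with Benjamini-Hochberg adjustment). Of these, 483 were higher (4.5% of tested genes) and 634 lower (5.91%). Changes of at least 2-fold were found in 181 of the higher and 97 of the lower genes. The median log2 fold change of all tested genes was -0.03. In 1477 genes (13.8%) the CM and untreated libraries did not overlap. Without untreated replicate 4, 507 genes were higher and 803 lower. Without untreated replicate 3, the number lower was 400. A fit with the replicate numbers as a block called 1713 genes, 1022 of them lower, but the labels do not say that the numbers pair. Of the 1117 genes, 550 kept their call in all 8 fits that leave out 1 library. In bulk libraries, fewer cells of a type and less RNA per cell cannot be told apart. Among the called genes named here, Bcl10, Itga1 and Klra3 lost their call in 7 of these 8 fits. Cish, Ets1, Itgax, Serpinb9b, Slc16a1, Thbs1, Tnfsf9, Zbtb16 and Zfp36l1 lost it in 6 fits, and Hk2, Ifnar2 and Mxd1 in 5. Bcl2l11, Fasn, Hsd17b7, Klrb1a and Lilrb4a lost it in 4 fits, Ccl3, Ccl9, Fasl, Nkg7 and Pde8a in 3, Irf4, Klre1 and Zeb2 in 2, and Cyp51, Dusp6, Klra9, Ldlrad4, Myo6, Pdcd4 and Tbx21 in 1.

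**Figure D1:**
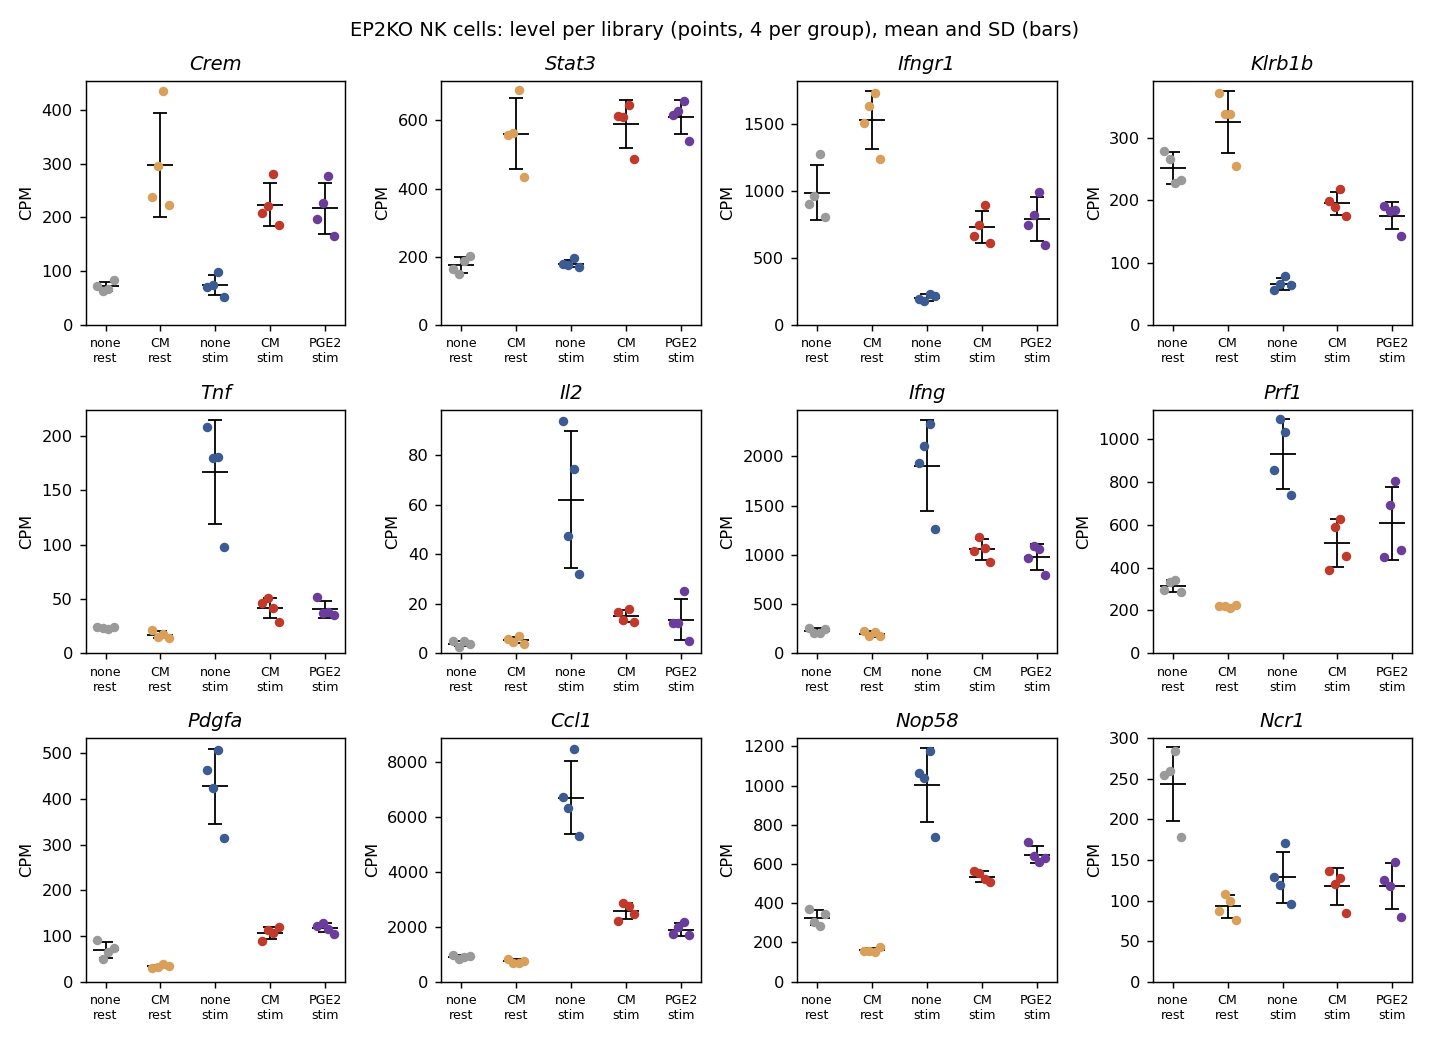
Levels in CPM (vertical axes, from 0) of 12 genes in the EP2KO libraries, 4 per group, with the mean and SD as bars. The horizontal axis gives the treatment (none, CM or PGE2) and whether cells rested or were stimulated. Stat3 and Crem were high in all 3 CM and PGE2 groups shown, Tnf and Il2 were highest with anti-NK1.1 alone, and Ncr1 overlapped between the stimulated groups.

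Many genes that cyclic AMP is known to induce rose with CM. Of 30 tested targets of the cyclic AMP, PKA and CREB pathway, 13 rose and none fell, with a median log2 fold change of 0.48, beside 4.5% of all tested genes that rose. The count was 13 without untreated replicate 4 too. The members that rose were Pde4d, Ier5l, Irs2, Stat3, Crem, Rgs2, Gpr183, Vegfa, Pde4b, Cxcr4, Fosl2, Sik1 and Pde3b. Members of a list share a pathway and are not replicates.

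Crem encodes a CREB family factor whose short form ICER represses cyclic AMP responses. Its levels were 208.9, 220.2, 280.6 and 185.0 CPM in the CM libraries and 70.9, 73.3, 98.8 and 52.1 in the untreated ones. Every CM library lay above every untreated library, and the log2 fold change was 1.60 ± 0.19 (SE; adjusted p = 2.63e-09). Rgs2, a GTPase activator that limits G-protein signalling, stood at 240.8, 249.2, 356.7 and 232.8 CPM with CM and at 85.2, 97.7, 79.7 and 111.9 without it. It rose by 1.52 ± 0.15 on the log2 scale (adjusted p = 2.34e-11), and replicate 3 was the highest of the CM libraries. Stat3, the transcription factor below IL-6, IL-10 and IL-21 receptors (chr11:100885098-100939540, GRCm38), measured 614.0, 610.8, 644.4 and 486.5 CPM with CM against 179.0, 175.4, 195.8 and 169.4 without. The change was 1.71 ± 0.13 (adjusted p = 2.81e-15), and the groups lay far apart. Irs2, an adaptor of the insulin and IGF1 receptors, stood at 88.5, 63.98, 75.2 and 84.3 CPM with CM and at 23.6, 23, 25.1 and 20.98 without (1.75 ± 0.19, adjusted p = 1.79e-10).

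Vegfa, the endothelial growth factor, is listed both as a cyclic AMP target and as a cytokine. Its levels were 87.1, 91.5, 78.8 and 53.7 CPM with CM and 36.5, 20.8, 31.2 and 26.4 without it (1.44 ± 0.19, adjusted p = 5.36e-08). Unlike most genes that rose, it was also induced by anti-NK1.1 in untreated WT cells, by 1.97 on the log2 scale.

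Cyclic nucleotide phosphodiesterases, which end the cyclic AMP signal, rose in 4 of 8 tested members, with none lower and a median of 0.78. Pde4d went from 5.01, 9.34, 5.20 and 9.32 CPM in untreated cells to 30.6, 28.3, 38.1 and 38.0 with CM, a log2 change of 2.20 ± 0.25 (adjusted p = 1.31e-09). Pde4b rose by 1.38 ± 0.16, from 36.5, 38.8, 40.7 and 31.1 CPM to 121.1, 90.8, 92.9 and 77.6. The groups did not overlap in either gene. Pde8a (0.81 ± 0.24, adjusted p = 0.0192) and Pde3b (0.75 ± 0.18, adjusted p = 0.00285) completed the 4. The machinery upstream moved little: of 19 adenylyl cyclases, PKA subunits, anchors and CREB factors, only Akap13, a scaffold that binds PKA, was called (0.97 ± 0.17).

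Among 9 tested prostanoid receptors and prostaglandin enzymes, Ptger4 was the single call. It measured 37.2, 26.8, 23.01 and 26.9 CPM with CM and 60.1, 68.3, 52.9 and 41.2 without, and fell by 0.95 ± 0.20 on the log2 scale (adjusted p = 0.000317). Ptger2 tags stood at 4.66 to 10.4 CPM with CM and 5.44 to 13.9 without (log2 fold change -0.38 ± 0.31, adjusted p = 0.544).

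CREB binds the letters TGACG, most tightly in the palindrome TGACGTCA. A search of the 32851 RefSeq promoter windows of GRCm38.p6 (250 bases before to 50 after a start site) found TGACG on either strand in 20.8% of windows and TGACGTCA in 1.79%. Only 74.7% of the tested genes had a window, under the 80% needed, so a comparison of the changed genes with the rest is void and none is given. Of the 13 cyclic AMP targets that rose, 10 had a window and 3 of these held the letters: Rgs2, Vegfa and Pde4b. Counted by gene in the same way, 38.1% of the 8009 tested genes with a window held them. With windows for only 10 of the 13 targets, nothing is concluded from these shares. The stretches of Rgs2 and Pde4b are shown because both genes rose, and those of Plk2 and Ifng because both fell and also hold the letters. Each runs 5′ to 3′ on the gene's strand from 200 to 21 bases before the start site, with TGACG, or CGTCA where the match is on the other strand, in capitals.
Rgs2, chr1:144004170-144004349, minus strand: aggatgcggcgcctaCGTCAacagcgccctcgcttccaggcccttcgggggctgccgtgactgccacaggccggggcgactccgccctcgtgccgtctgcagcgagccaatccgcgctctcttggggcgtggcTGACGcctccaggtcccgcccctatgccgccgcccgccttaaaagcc
Pde4b, chr4:102421355-102421534, plus strand: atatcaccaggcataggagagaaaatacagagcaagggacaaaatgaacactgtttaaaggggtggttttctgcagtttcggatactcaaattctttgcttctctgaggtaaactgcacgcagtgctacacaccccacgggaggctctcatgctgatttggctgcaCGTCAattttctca
Plk2, chr13:110394844-110395023, plus strand: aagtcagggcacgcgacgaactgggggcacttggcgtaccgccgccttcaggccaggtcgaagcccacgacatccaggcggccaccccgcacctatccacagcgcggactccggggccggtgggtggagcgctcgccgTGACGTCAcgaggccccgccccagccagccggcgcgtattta
Ifng, chr10:118440846-118441025, plus strand: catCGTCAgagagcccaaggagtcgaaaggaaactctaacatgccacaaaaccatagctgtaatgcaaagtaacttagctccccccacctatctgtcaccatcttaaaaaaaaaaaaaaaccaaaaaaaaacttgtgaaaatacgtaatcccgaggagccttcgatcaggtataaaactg
The matches begin 185 and 67 bases before the start site of Rgs2, 34 before that of Pde4b, 62 before that of Plk2 (the palindrome, read on both strands) and 197 before that of Ifng. Pde4b has 4 windows in the table, and the letters are in 1 of them. Plk2, a polo-like kinase, fell by 1.36 ± 0.21 on the log2 scale (adjusted p = 1.76e-06) and Ifng fell by 0.85, so the letters occur in promoters of genes that moved either way. The windows of Stat3, Irs2 and Pde4d do not hold them.

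Many cytokine transcripts fell with CM. Of 19 tested cytokine and TNF family ligand genes, 9 fell (Lta, Il2, Tnf, Tnfsf8, Tnfsf14, Tnfsf9, Csf2, Ltb and Ifng) and 3 rose (Vegfa, Tgfb1 and Fasl), with a median of -0.85, beside 5.91% of all tested genes that fell. Tnf, the inflammatory cytokine (chr17:35199381-35202007), measured 45.9, 50.6, 41.6 and 28.4 CPM with CM and 208.4, 179.7, 181.1 and 97.9 without it. It fell by 2.0 ± 0.21 on the log2 scale (adjusted p = 6.06e-11), a 4-fold change, and the groups did not overlap although untreated replicate 4 was the lowest of its group. Il2, the T cell growth factor, was far less abundant, at 16.6, 13.4, 17.7 and 12.7 CPM with CM and 93.8, 47.4, 74.5 and 31.9 without (log2 fold change -2.03 ± 0.34, adjusted p = 1.06e-05). Lta, lymphotoxin alpha, fell by 2.16 ± 0.34, from 52.3, 46.0, 58.9 and 28.0 CPM to 13.97, 7.44, 7.97 and 11.2. These 3 genes had the largest falls of the list.

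Ifng encodes interferon gamma, the signature cytokine of NK cells. Its levels were 1043, 1181, 1067 and 928.2 CPM with CM and 1931, 2104, 2325 and 1257 without. It fell by 0.85 ± 0.18 (adjusted p = 0.000486), less than Tnf, and the lowest untreated library lay just above the highest CM library. Tnfsf8 (CD30 ligand) measured 129.0, 121.3, 93.8 and 86.6 CPM with CM and 375.2, 405.3, 454.0 and 230.8 without (-1.76 ± 0.16, adjusted p = 7.45e-13). Tnfsf14 (LIGHT) fell by 1.45 ± 0.18, from 94.8 to 179.0 CPM in untreated cells to 45.9 to 66.4 with CM.

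Chemokines that NK cells secrete on activation fell in 5 of 9 tested members (Ccl1, Ccl3, Ccl4, Ccl9 and Xcl1) and rose in none. Ccl1, the ligand of CCR8, went from 6711, 6314, 8487 and 5322 CPM to 2229, 2884, 2742 and 2478 (-1.38 ± 0.20, adjusted p = 4.39e-07). Xcl1, which attracts cross-presenting dendritic cells, went from 15820, 15050, 17690 and 12430 CPM to 9120, 10470, 10890 and 8557 (-0.64 ± 0.17, adjusted p = 0.00521). Ccl4, an attractant of monocytes and T cells, went from 13300, 12220, 15220 and 10230 to 7609, 8334, 7870 and 6528 (-0.75 ± 0.19, adjusted p = 0.00434). All 3 kept apart in every library. Ccl5, which also attracts T cells and monocytes, stood at 1877 to 2784 CPM with CM and 1885 to 2977 without, with a log2 fold change of -0.05 ± 0.20 (adjusted p = 0.929). The number of chemokines lower was 3 without untreated replicate 3, without CM replicate 1 or without CM replicate 4.

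Pdgfa and Hbegf, both secreted growth factors, fell, whereas Vegfa rose. Pdgfa, a ligand of platelet-derived growth factor receptors, measured 88.5, 112.3, 106.2 and 120.1 CPM with CM and 464.0, 424.0, 505.9 and 314.7 without (-2.0 ± 0.17, adjusted p = 2.30e-14). Hbegf, an EGF receptor ligand, fell by 1.61 ± 0.22, from 30.3 to 54.6 CPM to 11.9 to 13.3. Both were picked by the rule for the 15 largest falls, which admits only genes whose groups do not overlap.

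Cytotoxic granule genes moved less. Of 22 tested, 3 fell (Prf1, Rab27a and Nkg7) and 1 rose (Serpinb9b). These are 13.6% lower and 4.55% higher, beside 5.91% and 4.5% of all tested genes. Prf1, the pore-forming perforin, measured 390.5, 589.2, 627.6 and 455.9 CPM with CM and 855.7, 1095, 1032 and 737.4 without (-0.85 ± 0.18, adjusted p = 0.00042). Nkg7, a granule membrane protein needed for exocytosis, fell by 0.58 ± 0.17 (adjusted p = 0.0188). Gzmb, granzyme B, stood at 1612, 2286, 2620 and 1536 CPM with CM and at 2762, 3382, 4000 and 2150 without. Its groups overlapped, and its log2 fold change of -0.61 ± 0.23 did not pass the threshold (adjusted p = 0.0779). It passed without untreated replicate 4 (adjusted p = 0.0273) and without CM replicate 3 (adjusted p = 0.0428). With the replicate block it passed as well (edgeR adjusted p = 3.69e-05). Each CM library lay below the untreated library of the same number, although the labels do not say that the numbers pair.

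Of 21 genes listed as activating receptors and adaptors, 4 fell (Cd244a, Slamf7, Crtam and Klrb1f) and 1 rose, with a median of 0.05. The gene that rose, Klrb1b, encodes an inhibitory receptor. Cd244a encodes 2B4 and Slamf7 encodes CRACC, both receptors of the SLAM family. Cd244a measured 19.96, 28.3, 29.2 and 35.1 CPM with CM and 64.4, 67.6, 93.6 and 70.7 without (-1.40 ± 0.18, adjusted p = 3.05e-08), and Slamf7 fell by 1.20 ± 0.15 (95.6 to 128.0 CPM against 175.6 to 289.3). Crtam, the receptor of nectin-like 2, fell by 1.01 ± 0.14, from 986.9 to 1802 CPM to 615.6 to 751.5. Klrb1b, whose lectin receptor is encoded beside the NK1.1 gene, measured 198.2, 189.0, 218.6 and 174.6 CPM with CM and 55.1, 66.1, 78.8 and 64.5 without (1.56 ± 0.15, adjusted p = 1.33e-12). Klrb1c itself, the target of the stimulating antibody, stood at 103.0 to 177.9 CPM with CM and 119.6 to 168.2 without (-0.09 ± 0.14, adjusted p = 0.775). Ncr1, which encodes NKp46, stood at 85.1 to 136.4 CPM with CM and 95.6 to 170.7 without (-0.13 ± 0.16, adjusted p = 0.714).

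Below these receptors, 3 of 27 signalling genes fell, Lcp2 and Bcl10 among them, and 2 rose (Cblb and Inpp5d). These are 11.1% lower and 7.41% higher, beside 5.91% and 4.5% of all tested genes, and the list median was -0.08. Most of the list was thus not called. Lcp2 encodes SLP-76, an adaptor of activating signals, and fell by 1.00 ± 0.12 (adjusted p = 2.63e-09). Cblb encodes a ubiquitin ligase that restrains NK activation and rose by 0.81 ± 0.16; Inpp5d encodes the inhibitory phosphatase SHIP1 and rose by 0.75 ± 0.15. Of 23 tested genes listed with inhibitory and checkpoint receptors, 5 rose (Tigit, Nt5e, Klra3, Klra9 and Klre1) and 3 fell (Havcr2, Lilrb4a and Cish). Nt5e and Cish do not encode receptors. Tigit, a receptor of nectins, was scarce in all 8 libraries, at 15.96, 4.46, 12.4 and 10.4 CPM with CM and 2.15, 5.03, 1.73 and 2.33 without, with overlap (1.89 ± 0.45, adjusted p = 0.00209). Nt5e, which encodes the adenosine-producing enzyme CD73, measured 21.3, 12.6, 25.7 and 20.2 CPM against 5.73, 3.59, 6.93 and 5.44 (1.87 ± 0.34, adjusted p = 6.04e-05). Havcr2, which encodes TIM-3, fell by 1.29 ± 0.19, from 81.6 to 168.9 CPM to 51.2 to 63.4. The number of genes of this list higher was 3 without untreated replicate 4 and 3 without CM replicate 3. The number lower was 1 without untreated replicate 1, untreated replicate 2, CM replicate 2 or CM replicate 3.

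Receptors for cytokines rose in 6 of 25 tested members (Ifngr1, Il12rb2, Il2rb, Ifnar2, Tnfrsf1b and Tgfbr2) and fell in 1 (Il2ra). Ifngr1, the ligand-binding chain of the interferon gamma receptor (chr10:19591949-19610229), measured 665.2, 744.7, 890.4 and 614.1 CPM with CM and 191.9, 179.0, 232.2 and 211.4 without. The log2 fold change was 1.84 ± 0.15 (adjusted p = 5.31e-15), and the lowest CM library was well above the highest untreated one. The chains of the IL-2 receptor moved in opposite directions. Il2rb, the beta chain shared with the IL-15 receptor, rose by 0.80 ± 0.12 (adjusted p = 4.75e-07; 767.0 to 1114 CPM against 494.2 to 635.9). Il2ra, the inducible alpha chain, stood at 496.2, 414.4, 290.3 and 288.8 CPM with CM and at 970.2, 986.8, 967.7 and 477.1 without. It fell by 1.19 ± 0.19 (adjusted p = 3.13e-06), and its groups overlapped because untreated replicate 4 lay at the level of the CM libraries. The list of genes known to follow IL-2, IL-15 and STAT5 holds both chains: 10 of its 23 tested members fell, Il2ra among them, and 1 rose (Il2rb). Ccnd2, cyclin D2, fell by 1.22 ± 0.13 (1233 to 1586 CPM against 2400 to 3742, adjusted p = 1.42e-10).

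Trafficking receptors rose in 7 of 24 tested members (among them Ccr7, Gpr183, Cxcr4, Ccr2, S1pr4 and Itga1) and fell in 2 (Cd69 and Icam1), with a median of 0.49. Ccr7, the lymph node homing receptor, had the largest log2 fold change of all genes called higher, 3.17 ± 0.54 (adjusted p = 1.76e-05). Its levels were low and uneven, at 15.3, 21.6, 47.8 and 10.4 CPM with CM and 2.15, 1.44, 3.46 and 3.11 without. Ccr2, the receptor of CCL2, rose by 1.04 ± 0.15, at 444.3, 503.6, 609.9 and 513.3 CPM against 252.8, 272.4, 257.3 and 221.5. Cd69, an early activation marker that holds lymphocytes in tissue, fell by 1.19 ± 0.13, at 121.7, 119.8, 83.2 and 93.3 CPM against 276.4, 266.6, 240.8 and 173.3 (adjusted p = 3.34e-10).

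Transcription factors of NK cells moved both ways: 7 of 26 rose (Ikzf2, Tcf7, Zbtb16, Runx3, Bach2, Foxo1 and Ets1) and 5 fell (Tbx21, Ikzf1, Irf4, Zeb2 and Kdm6b). Tcf7, which marks less differentiated lymphocytes, rose by 0.98 ± 0.16 (89.5 to 140.7 CPM against 45.1 to 69.3). Without untreated replicate 2 the number lower was 3. Immediate early genes and targets of NFAT and NF-kB fell in 10 of 33 and rose in 2 (Fosl2 and Tnfaip3), and the number lower was 12 without untreated replicate 4. Egr1, an immediate early zinc finger factor, measured 85.8, 88.5, 73.5 and 84.3 CPM with CM and 207.7, 196.9, 179.3 and 153.9 without (-1.15 ± 0.17, adjusted p = 8.18e-07). Rel, the c-Rel subunit of NF-kB, fell by 0.99 ± 0.13, at 594.7, 623.4, 483.3 and 479.8 CPM against 1214, 1181, 1225 and 701.7. Nr4a1, an immediate early nuclear receptor, did not pass the test, with 172.3 to 207.6 CPM with CM and 126.7 to 175.4 without (0.30 ± 0.19, adjusted p = 0.368).

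Most ribosome biogenesis genes were lower with CM. Of 32 tested, 24 fell and none rose, with a median of -0.65. Nop58, a core protein of small nucleolar ribonucleoproteins, measured 562.1, 554.2, 522.2 and 506.6 CPM with CM and 1064, 1038, 1175 and 736.7 without (-0.90 ± 0.13, adjusted p = 6.52e-07). Without untreated replicate 4 the number was 29 of 32. Myc, which drives many of these genes, fell by 0.85 ± 0.18 (55.2 to 101.1 CPM against 98.7 to 199.3). Its antagonists Mxi1 (1.64 ± 0.25), Mxd4 (1.03 ± 0.15) and Mxd1 (0.61 ± 0.21) rose. Cdkn1b, the cell cycle inhibitor p27, rose by 1.14 ± 0.14 (99.2 to 115.1 CPM against 41.0 to 58.3), while 33 of 36 cell cycle and replication genes were not called (2 rose and 1 fell).

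Protein synthesis and folding genes also fell in part. Atf4 targets and tRNA synthetases fell in 13 of 30 (1 rose), translation initiation factors in 10 of 24 (1 rose), chaperones of the unfolded protein response in 9 of 22 (1 rose) and cytosolic heat shock genes in 9 of 20 (1 rose). Hspa5, the endoplasmic chaperone BiP, measured 1650, 1550, 1307 and 1500 CPM with CM and 3083, 3090, 3319 and 2286 without (-0.97 ± 0.13, adjusted p = 6.69e-08). Without untreated replicate 4 the Atf4 count was 16 and the translation count 14. Without untreated replicate 3 the Atf4 count was 8 and the translation count 5, and without untreated replicate 1 the translation count was 6. With no filter on low counts the heat shock and translation counts were 5 each. Several other lists moved little. None of 26 nuclear genes of oxidative phosphorylation, none of 10 mitochondrially encoded genes and none of 34 interferon-stimulated genes was called, and the proteasome gave 2 of 30. Without untreated replicate 4, 2 interferon-stimulated genes were called higher and their median went from -0.21 to 0.11. Without untreated replicate 1 or 3, 1 was called lower.

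**Figure D2:**
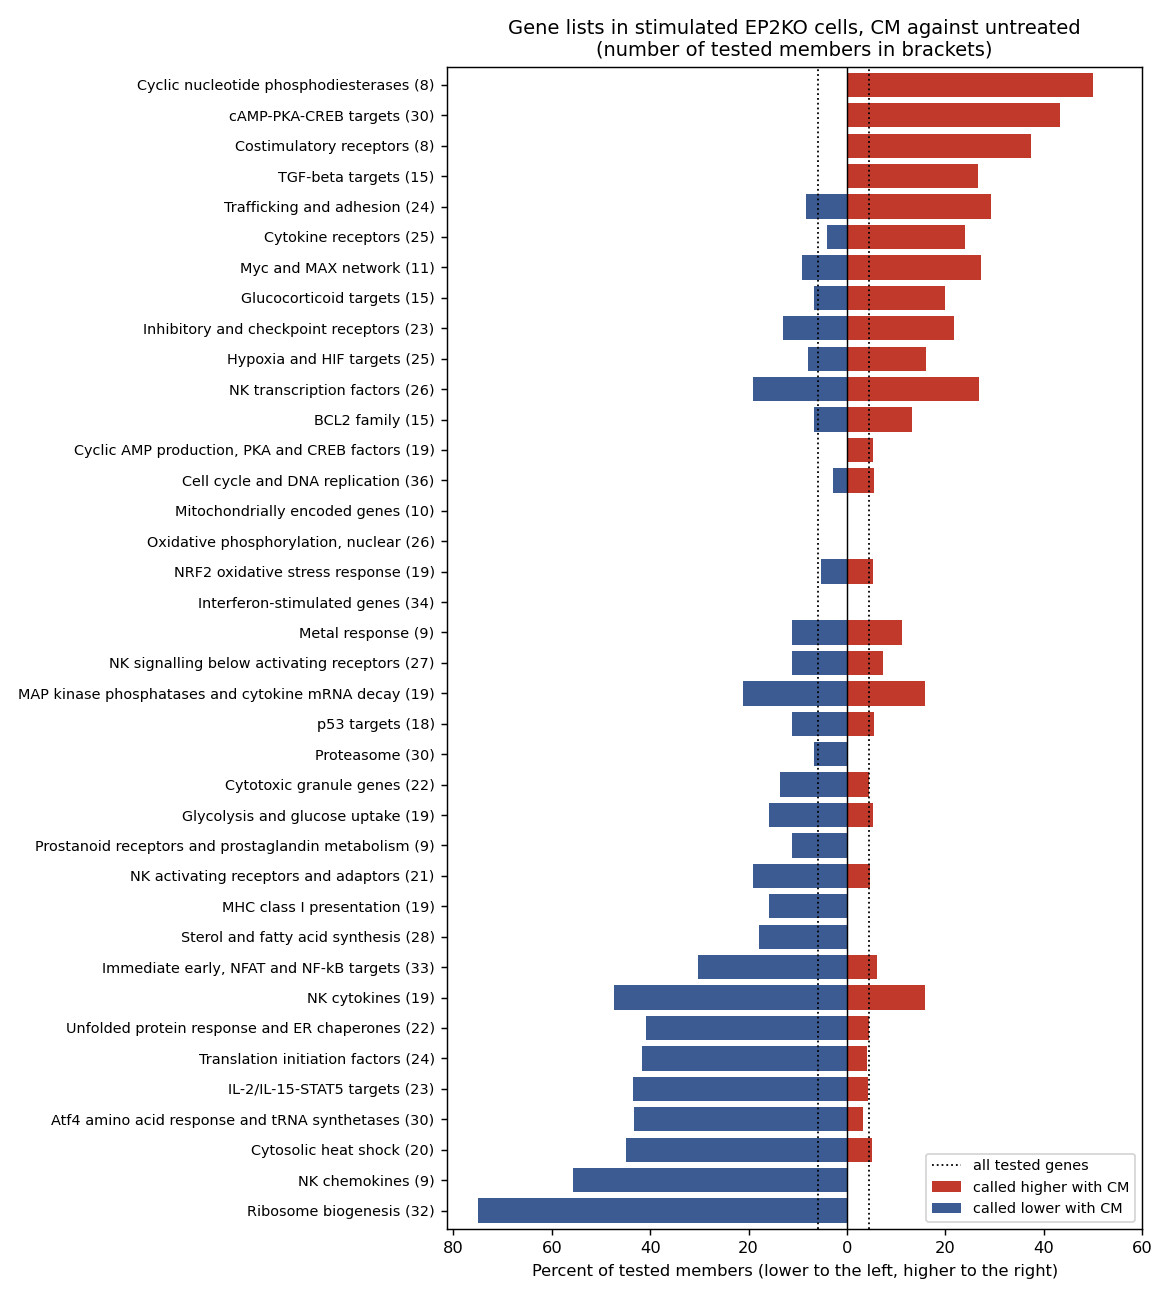
Share of tested members called higher (red, to the right) or lower (blue, to the left) with CM in stimulated EP2KO cells, in percent, for 38 gene lists with the number of tested members in brackets. Dotted lines mark the shares over all tested genes, 4.5% higher and 5.91% lower. Phosphodiesterases and cyclic AMP targets stand at the top, and chemokines and ribosome biogenesis at the bottom.

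Some of the largest rises belong to no list used here. Bend4, which encodes a BEN domain protein, measured 48.6, 45.4, 73.5 and 38.0 CPM with CM and 10.02, 6.47, 7.80 and 5.44 without (2.76 ± 0.35, adjusted p = 2.75e-08). Dgat1, the enzyme of the last step of triglyceride synthesis, measured 47.9, 57.3, 69.9 and 75.4 CPM against 15.8, 9.34, 16.5 and 20.2 (2.02 ± 0.23). Both genes were picked by the rule for the 15 largest rises, which admits only genes whose groups do not overlap. Icos, which does belong to a list, that of costimulatory receptors, rose by 1.70 ± 0.16 (75.4 to 98.4 CPM against 23 to 30.8). In that list 3 of 8 tested members rose (Icos, Cd28 and Tnfrsf1b) and 0 fell, beside 4.5% of all tested genes that rose. Thbs1, thrombospondin 1, is the weakest of the 15 largest rises: 105.1, 26.0, 21.2 and 79.8 CPM against 20.1, 12.2, 6.93 and 13.2, with an SE of 0.73 around 2.14 (adjusted p = 0.0482).

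The genes that CM lowered were mostly those that anti-NK1.1 induces. Responses to the antibody were taken from untreated WT cells, which share no library with the comparison: 2465 of the tested genes (23%) were induced and 2043 (19.1%) reduced. Of the induced genes, 23.1% were lower with CM in EP2KO cells (570) and 0.811% higher (20), against 5.91% and 4.5% of all tested genes. Of the reduced genes, 15.2% were higher (310) and 0.196% lower (4). Of the 634 genes that CM lowered, 89.9% were WT-induced; of the 483 that it raised, 64.2% were WT-reduced. Among 233 genes induced at least 4-fold in WT cells, 96 fell with CM, none rose, and the median was -0.75. Without untreated replicate 4 the share of induced genes that fell was 29.3%, and without untreated replicate 3 it was 14.3%.

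**Figure D3:**
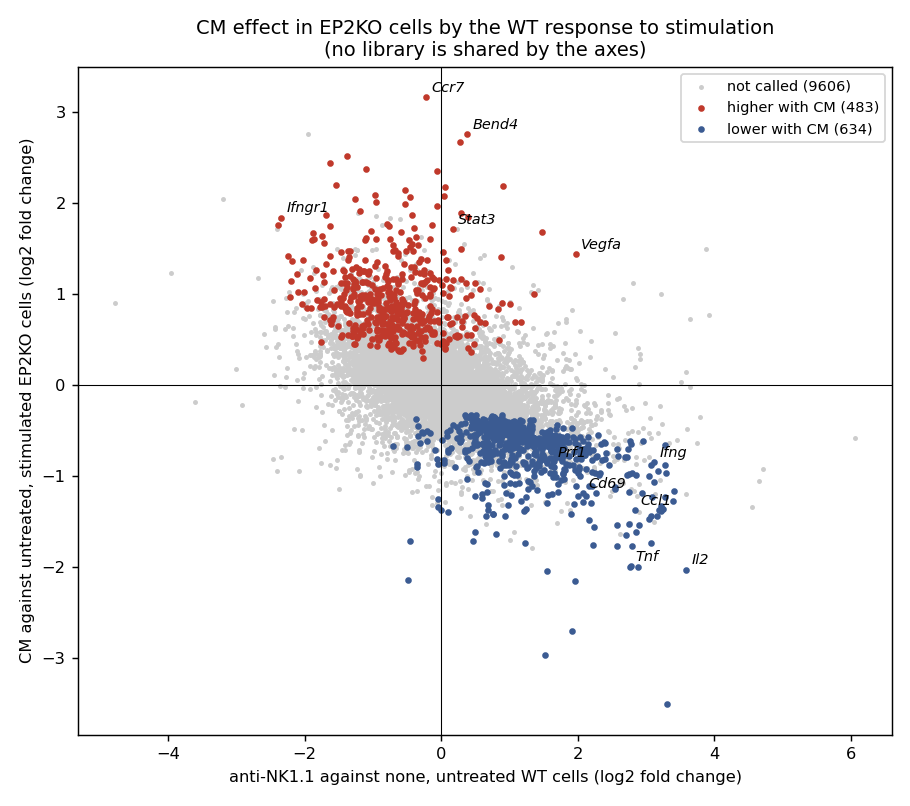
Log2 fold change with CM in stimulated EP2KO cells (vertical axis) against the log2 fold change with anti-NK1.1 in untreated WT cells (horizontal axis) for 10723 genes. Red points are the 483 genes called higher and blue points the 634 called lower with CM; grey points were not called. Blue points lie mostly to the right of 0 and red points mostly to its left, with Vegfa among the exceptions.

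Genes induced by the antibody fell to levels that differed from gene to gene. Pdgfa averaged 106.8 ± 13.5 CPM with CM and antibody and 427.2 ± 82.1 with antibody alone (SD, n = 4 each). Ifng averaged 1055 ± 103.5 CPM against 1904 ± 461.0.

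EP2KO cells were then set against the other genotypes, to ask how the CM effect depends on EP2 and EP4. Between EP2KO and WT cells no gene differed in its CM response by edgeR's test (0 of 10723) or by DESeq2 (0), with 266 genes (2.48%) at an unadjusted p under 0.05. A call in neither tool does not show that the responses are alike. The difference (EP2KO minus WT) was -0.04 ± 0.18 for Stat3, 0.01 ± 0.26 for Crem, 0.39 ± 0.30 for Tnf and 0.63 ± 0.25 for Ifng (log2, SE). In stimulated WT cells CM changed 1654 genes (15.4%). Of the 1117 EP2KO calls, 853 were called there in the same direction and 0 in the opposite one, which is 76.4% of the EP2KO calls and 51.6% of the WT calls. The fold changes of all tested genes had a Pearson correlation of 0.68 and a Spearman correlation of 0.66 between the genotypes, which share no library. That value runs across genes, which are not independent replicates.

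Where EP4 was also targeted, the CM effect differed from that in EP2KO cells for 37 genes (0.345% of those tested). DESeq2 gave 73, the replicate block gave 169, and 9 were called when the contrast's own groups were fitted alone. The difference was above 0 for 22 genes (0.205%), all called lower with CM in EP2KO cells, and below 0 for 15 genes (0.14%), all called higher there. The difference subtracts the EP2KO effect and uses the same EP2KO libraries. These opposite signs are thus largely built in and are no separate result. EP2/EP4KO libraries were low in Xist (30.0 to 46.7 CPM, against 536.4 to 753.3 in EP2KO) and high in the Y-linked Ddx3y (67.3 to 179.7 against 0.744 to 6.93), so sex and genotype cannot be told apart in these differences. CM changed 8 genes in stimulated EP2/EP4KO cells (0.0746%), with 3 libraries a group: Arid5b, B4galt1, Kansl3, Scd2, Vegfa and Vgll4 rose, and Serpina3g and Tnfsf8 fell. Those 8 were named after their values were seen. Of them, 6 were called in EP2KO cells in the same direction.

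Pdgfa showed the largest difference of the genes that fell. In EP2/EP4KO cells it stood at 217.9, 279.0 and 459.3 CPM with CM and at 322.5, 364.4 and 395.9 without, with overlap, and its CM effect was -0.18 ± 0.18. The difference from EP2KO cells was 1.82 ± 0.24 (adjusted p = 3.76e-06). Tnf differed by 1.49 ± 0.31, Hivep3 by 1.38 ± 0.26, Trim8 by 1.33 ± 0.32 and Tnfsf14 by 1.30 ± 0.26. Hivep3 encodes a zinc finger factor and Trim8 a ubiquitin ligase. Among the genes that rose, Abcb1a, the drug efflux pump, measured 30.9, 30.8 and 29.8 CPM with CM and 26.3, 29.4 and 32.6 without in EP2/EP4KO cells, against 90.5, 92.2, 92.9 and 86.6 with CM in EP2KO cells. Its difference was -1.69 ± 0.31 (adjusted p = 0.00189). The difference was -1.59 ± 0.37 for Dgat1, -1.48 ± 0.29 for Kctd12 and -1.48 ± 0.36 for Basp1. Stat3 (-1.21 ± 0.20), Ifngr1 (-1.42 ± 0.22) and Crem (-1.20 ± 0.29) were among the 37 as well. Of the genes given here, Pdgfa, Hivep3, Abcb1a, Kctd12, Stat3 and Ifngr1 passed with the contrast's groups alone. The others did not, with edgeR adjusted p of 0.0752 for Tnf, 0.0603 for Tnfsf14, 0.16 for Trim8, 0.156 for Dgat1, 0.148 for Basp1 and 0.0609 for Crem.

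Vegfa was among the 8 genes called in EP2/EP4KO cells. In EP2/EP4KO cells it measured 61.0, 44.7 and 63.7 CPM with CM and 28.5, 25.0 and 21.2 without, a log2 fold change of 1.18 ± 0.23 (adjusted p = 0.0125), beside 1.44 ± 0.19 in EP2KO cells. Its difference between the genotypes was not called. The median of the 30 cyclic AMP targets was 0.40 in EP2/EP4KO cells, where 1 was called, beside 0.48 in EP2KO cells, where 13 were. The median of the 32 ribosome biogenesis genes was -0.30 there (0 called) beside -0.65. EP2/EP4KO groups have 3 libraries each, and leaving out single libraries moved the count of 37 to between 19 and 68. It was 67 without EP2KO untreated replicate 4 and 68 without EP2/EP4KO CM replicate 1. Without EP2KO untreated replicate 1 or 2 it was 21 or 22, without EP2KO CM replicate 3 it was 20, and without EP2/EP4KO untreated replicate 2, CM replicate 2 or CM replicate 3 it was 19, 23 or 23.

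**Figure D4:**
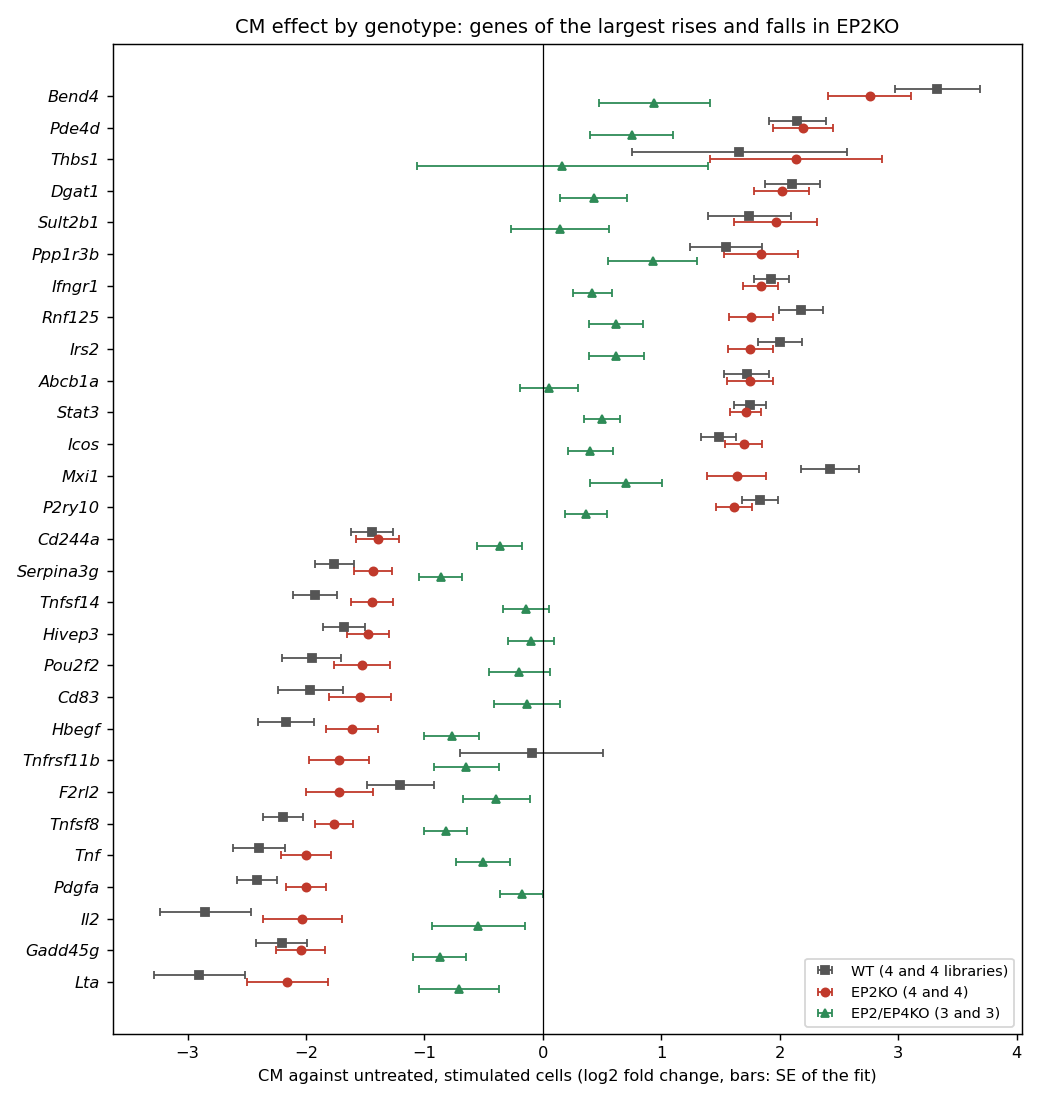
CM effect in stimulated cells as log2 fold change with its SE (horizontal axis) for 14 of the 15 largest rises and the 15 largest falls in EP2KO cells, by genotype. WT squares lie near the EP2KO circles for most genes, with Tnfrsf11b as an exception (-0.10 in WT, -1.72 in EP2KO, a difference that was not called), and EP2/EP4KO triangles lie nearer 0; the genes were chosen by the EP2KO values.

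For some genes the CM effect differed between stimulated and unstimulated EP2KO cells. CM changed 469 genes in unstimulated cells (4.37%), and 251 of the 1117 calls in stimulated cells were called there in the same direction and 3 in the opposite one. The CM effect itself differed between the states for 68 genes (0.634%): 33 (0.308%) with a higher and 35 (0.326%) with a lower fold change in stimulated cells. DESeq2 gave 111, and leaving out single libraries gave 35 to 87. The count was 35 to 45 without each of these libraries: unstimulated untreated replicate 2 or 3, unstimulated CM replicate 1, 3 or 4, stimulated untreated replicate 1, 2 or 3, and stimulated CM replicate 3.

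Cyclic AMP targets rose in both states. Crem rose by 2.06 ± 0.19 and Stat3 by 1.67 ± 0.13 in unstimulated cells, beside 1.60 and 1.71 in stimulated ones, and 14 of the 30 listed targets were called higher at rest. Genes of activation were among those that differed: Tnf differed by -1.53 ± 0.36 and Gadd45g, a stress-induced activator of p38, by -1.67 ± 0.32, and in unstimulated cells their CM effects of -0.47 ± 0.29 and -0.37 ± 0.24 were not called. Tnfrsf11b (osteoprotegerin) differed by -1.59 ± 0.42, Ust (a uronyl sulfotransferase) by -1.58 ± 0.34.

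Rptor encodes raptor, a subunit of the mTOR complex that drives growth, and was called higher with CM in unstimulated cells. There it measured 34.1, 43.6, 66.6 and 32.4 CPM with CM and 14.3, 10.2, 17.6 and 16.2 without (1.57 ± 0.24), while in stimulated cells it stood at 23.9 to 30.1 and 22.3 to 30.1 CPM. The difference was -1.57 ± 0.33 (adjusted p = 0.00712).

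A further set had a lower CM effect in resting cells. Ncr1 went from 254.3, 259.0, 284.0 and 178.4 CPM to 86.7, 108.3, 100.0 and 76.3 at rest (-1.40 ± 0.16), and its difference between the states was 1.27 ± 0.23 (adjusted p = 0.000948). Klrb1a, a lectin receptor of the NK1.1 family, fell by 0.90 ± 0.15 at rest and rose by 0.52 ± 0.17 after stimulation, a difference of 1.43 ± 0.23. Egr3, an immediate early factor, fell by 2.22 ± 0.27 at rest and by 0.82 ± 0.18 after stimulation. Phactr3, a regulator of protein phosphatase 1 and actin, and Ifngr1 rose more after stimulation, with differences of 1.43 ± 0.24 and 1.21 ± 0.20. Ifngr1 averaged 984.7 ± 204.3 CPM in resting untreated cells, 203.6 ± 23.2 after anti-NK1.1, and 728.6 ± 120.5 after anti-NK1.1 with CM (SD, n = 4 each).

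**Figure D5:**
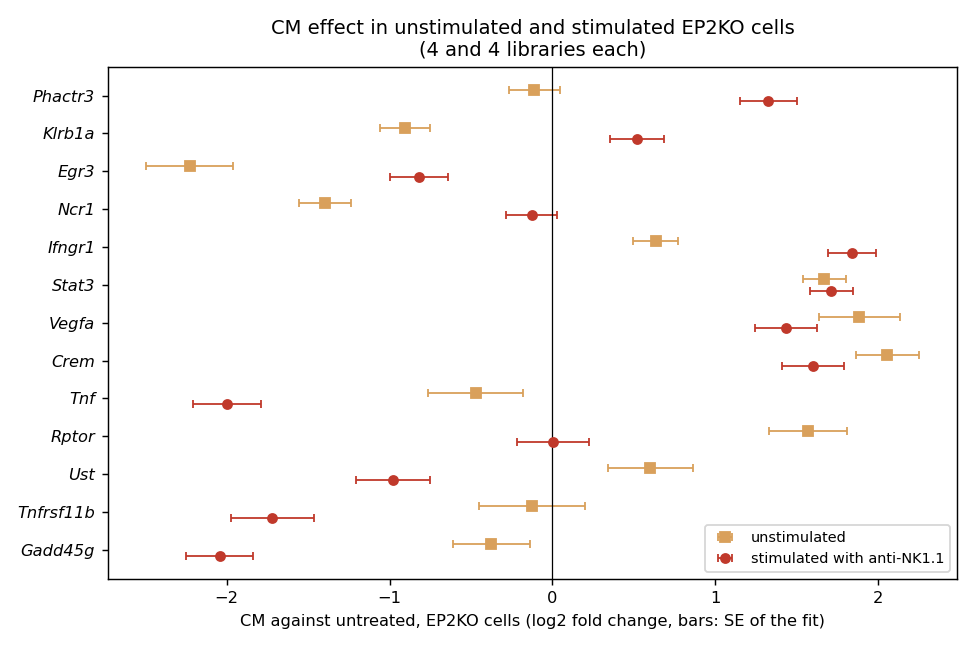
CM effect in EP2KO cells as log2 fold change with its SE (horizontal axis) in unstimulated (squares) and stimulated cells (circles). Shown are Stat3, Vegfa and Crem and the 10 called genes with the largest differences (5 each way) at a mean of 16 CPM or more. Predicted genes and pseudogenes were passed over, and some genes of lower level had larger differences. Tnf and Gadd45g lie near 0 at rest and at about -2 after stimulation, Ncr1 and Rptor lie away from 0 at rest and near 0 after stimulation, and Stat3 lies at the same place in both.

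CM was finally set against PGE2 itself in stimulated EP2KO cells, 4 libraries each. A direct test found 1 gene of 10723 (0.00933%), with 441 (4.11%) at an unadjusted p under 0.05 and 2 genes by DESeq2. That gene was Myo6, an actin motor, which stood at 105.1, 102.7, 88.5 and 94.0 CPM with CM and at 59.3, 36.6, 61.5 and 64.9 with PGE2, a log2 difference of 0.82 ± 0.15 (adjusted p = 0.0116). No gene was called without PGE2 replicate 2, without CM replicate 1 or without CM replicate 2. CM and PGE2 share their untreated control libraries, so their fold changes are given side by side only. Stat3 changed by 1.71 with CM and 1.76 with PGE2, Ifngr1 by 1.84 and 1.95, Tnf by -2.0 and -2.03, and Nop58 by -0.90 and -0.63. Other pairs lay further apart, such as -2.04 and -1.29 for Gadd45g and -1.19 and -1.55 for Cd69. Of 32 ribosome biogenesis genes, 24 were called lower with CM and 12 with PGE2. A single call in the direct test does not show that the treatments act alike. PGE2 changed 782 genes (7.29%) and CM 1117.

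TGF-beta is a cytokine known to restrain NK cells. Of 15 tested TGF-beta targets, 4 rose with CM (Pmepa1, Ldlrad4, Itga1 and Tgif1) and none fell. That is 26.7% higher, beside 4.5% of all tested genes, but the list median was only 0.08. With CM in stimulated WT cells, 2 of the 15 were called higher and 2 lower. Pmepa1, a feedback inhibitor of TGF-beta signalling, measured 194.9, 175.6, 161.1 and 194.7 CPM with CM and 87.4, 79.8, 73.6 and 92.5 without (1.12 ± 0.20, adjusted p = 5.19e-05). Ldlrad4, another inhibitor of the pathway, measured 15.96, 19.3, 22.1 and 23.1 CPM against 13.6, 7.91, 8.66 and 9.32 (1.01 ± 0.29, adjusted p = 0.0133). With PGE2, Pmepa1 changed by 0.63 and Ldlrad4 by 0.02; the direct differences between CM and PGE2 were 0.49 ± 0.20 and 0.99 ± 0.29 and neither passed the adjusted threshold (adjusted p = 1 and 0.866). In EP2/EP4KO cells their CM effects were 0.93 and 0.78, also not called. The number of TGF-beta targets higher was 7 when only the 2 groups of the contrast were fitted.

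The cell identity of the libraries was checked with marker lists. All 10 NK markers were tested, and their summed level was 4408 to 5900 CPM with CM and 4694 to 6364 without; Il2rb and Klre1 rose and Prf1 and Nkg7 fell. The 9 markers of type 1 innate lymphoid cells summed to 333.7 to 467.0 CPM with CM and 238.6 to 324.4 without, with Rora and Itga1 called higher. As a share of counts they made up 0.0372% ± 0.0073 with CM and 0.0252% ± 0.0040 without (SD, n = 4 each; exact two-sided permutation test, p = 0.0286, the smallest that 4 against 4 can give; adjusted p = 0.172 over 12 measures). Itga1 stands in the trafficking and TGF-beta lists too, and the part of these cells in the result was not tested. T cell markers summed to 514.8 to 813.4 CPM with CM and 508.2 to 693.1 without. Neutrophil markers ranged from 77.1 to 763.0 CPM over the 8 libraries and overlapped between the groups. The B cell gene Cd79a, the dendritic cell gene Clec9a, the erythroid genes Alas2 and Slc4a1 and the melanocyte genes Dct and Mlana had no count in any of the 8 libraries. Other members of these lists had counts. B cell markers summed to 51.48 to 69.04 CPM with CM and 52.84 to 60.15 without. Macrophage and dendritic cell markers summed to 188.5 to 493.6 CPM with CM and 163.7 to 381.6 without. Of the latter, Cd14 was called higher and Itgax lower. Erythroid markers reached 81.59 CPM and melanoma markers 7.771 CPM, both without CM. The 20 most abundant genes took 20.2% ± 0.09 of counts with CM and 21.4% ± 0.10 without (exact permutation p = 0.0286, adjusted p = 0.172), and mitochondrially encoded genes 9.32% ± 0.41 and 9.48% ± 0.75 (p = 0.743, exact permutation test).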

How the data were processed

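Bulk 3' mRNA-seq libraries with molecular identifiers were made from RNA of cultured NK cells, per the labels' protocols. The authors deposited a table of whole-number counts per gene for 36273 genes and 64 libraries; GRCm38 (mm10) and DESeq2 are named in the submitters' processing notes, and for the aligner, counter, annotation and strand, and for reads against identifiers, the step is not given in the sources used here. Without strand, overlapping and antisense genes cannot be told apart.

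Members and lists were chosen with earlier results of these data known. All 64 libraries in 18 groups were fitted with edgeR 4.0.16 (trimmed mean of M-values, filterByExpr with a minimum count of 10, robust quasi-likelihood, 1 mean per group); 10723 genes with 99.21% of counts were tested, with Benjamini-Hochberg adjustment over them at 0.05. Differences between contrasts were tested in the same fit. CPM use the scaled library sizes; ± is the SD for levels and the SE of the fit for log2 fold changes. Genes were named by rule: the 15 largest rises and falls among called genes with a mean of 16 CPM or more and no overlap, up to 4 called genes per list, 11 fixed genes, and 5 each way per difference with the same CPM minimum. Shares were tested by exact two-sided permutation. Alternatives were DESeq2 1.42.0, its size factors, no filter, the contrast's groups alone, a replicate block and each library left out; list counts and stimulation shares under them were added after seeing the data. The fit was tested on simulated data. Gene positions are from GENCODE M21 (GRCm38). Some genes that these rules name are not reported here.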

Additional observations from a re-analysis of the deposited data

Results flagged for a closer look

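In 158 checks of a group of 4 libraries, 6 had a lone extreme value, and chance alone flags about 1 group in 20. Untreated stimulated replicate 4 was the lowest of its group in Il2ra, at 477.1 CPM against 967.7 to 986.8, and in Rel, at 701.7 CPM against 1181 to 1225. CM replicate 3 was the highest of its group in Rgs2, at 356.7 CPM against 232.8 to 249.2. Markers of type 1 innate lymphoid cells made up 0.0480% of counts in CM replicate 1, against 0.0321% to 0.0347% in the other CM libraries. Erythroid markers took 0.00350% of counts in CM replicate 4, against at most 0.000616% in the others, and 0.00798% in untreated replicate 4, against at most 0.000737%.

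The CM effect in stimulated cells differed between EP2/EP4KO and EP2KO cells, by edgeR's test of the difference, among others in Pdgfa (log2 difference 1.82), Tnf (1.49), Hivep3 (1.38), Trim8 (1.33) and Tnfsf14 (1.30) and in Abcb1a (-1.69), Dgat1 (-1.59), Kctd12 (-1.48) and Basp1 (-1.48). It differed between stimulated and unstimulated EP2KO cells, by the same test, among others in Phactr3 (1.43), Klrb1a (1.43), Egr3 (1.40), Ncr1 (1.27) and Ifngr1 (1.21) and in Gadd45g (-1.67), Tnfrsf11b (-1.59), Ust (-1.58), Rptor (-1.57) and Tnf (-1.53).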

How the results depend on the processing

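The depth of the libraries limits genes of a few CPM, such as Tigit, and 3 or 4 libraries a group limit the differences between contrasts. DESeq2 called 1098 genes, DESeq2 size factors 1122 and the contrast's groups alone 1059, beside 1117. No filter gave 742 genes, 388 of them lower. The replicate numbers of the EP2KO groups were not taken to pair the samples, since the labels do not say so and 1 same-numbered pair correlated under 0.1 (0.234, 0.0539, 0.352 and 0.383). As a hint from the data, 3 of 4 CM libraries correlated best with their own number. On principal component 2 (24.6% of the variance), CM and untreated replicates 1 lay at 6.38 and 4.78, and replicates 2 at -8.05 and -0.577. Replicates 3 lay at -26.6 and -30.2, and replicates 4 at 23.2 and 31.1. Neutrophil markers took 0.0785% and 0.0638% of counts in replicates 1 and 0.026% and 0.028% in replicates 2. In replicates 3 they took 0.0117% and 0.00669%, and in replicates 4 0.0482% and 0.0542%. A shared source was not tested. With a replicate block 1713 genes were called, 1022 of them lower; Gzmb passed (adjusted p = 3.69e-05) and 4 granule genes were higher and 5 lower; the block gave 169 genes for EP2/EP4KO minus EP2KO, 220 for stimulated minus unstimulated and 7 for CM against PGE2. Without single libraries the total ran from 788 to 1310, the number higher from 349 to 507, and the number lower from 400 (without untreated replicate 3) to 803; the share of WT-induced genes that fell ran from 14.3% to 29.3%. EP2/EP4KO minus EP2KO gave 37 genes, 73 by DESeq2, 9 with the contrast's groups alone, and 19 to 68 without single libraries. Stimulated minus unstimulated gave 68, 111 by DESeq2, and 35 to 87. CM against PGE2 gave 1, 2 by DESeq2, 2 with no filter, and 0 to 1 without single libraries; with the contrast's groups alone the 1 gene called was a different one. EP2KO minus WT gave 0 genes under each setting run. Among named genes, 4 that were not called changed sign: Ccl5 was 0.023 with the contrast's groups alone and ran from -0.19 to 0.12 without single libraries, Ncr1 from -0.25 to 0.033, Klrb1c from -0.24 to 0.029, and Rptor from -0.072 to 0.076 and stood at -0.003549 with the replicate block. The causes were not tested.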

Other observations

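Several lists outside the groups above held called genes in the CM comparison of stimulated EP2KO cells. Over all tested genes, 4.5% were higher and 5.91% lower. In the BCL2 family 13.3% were higher and 6.67% lower, and among glucocorticoid targets 20% and 6.67%. In the metal response list 11.1% were called each way, which is 1 gene each. Of 15 BCL2 family genes, the survival gene Bcl2l1 (BCL-XL) fell by 1.11 ± 0.17 on the log2 scale (38.8 to 54.9 CPM with CM, 87.0 to 119.6 without), and the pro-death genes Bmf (1.99 ± 0.51, at 5.95 to 11.2 CPM against 0.719 to 2.60) and Bcl2l11 (BIM, 0.40 ± 0.13) rose. Among 19 tested genes listed with MAP kinase phosphatases and cytokine mRNA decay, Dusp5, Zfp36l2 and Pdcd4 rose and Mir155hg, Dusp2, Dusp6 and Zfp36l1 fell. Mir155hg, the host gene of miR-155, and Pdcd4, also listed with translation factors, are neither phosphatases nor decay factors. Dusp5, a phosphatase of nuclear ERK, stood at 223.8 to 358.5 CPM with CM and 125.1 to 177.6 without, and Dusp2, another ERK phosphatase, at 317.1 to 415.1 against 488.0 to 738.1.

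Sterol and fatty acid synthesis genes fell in 5 of 28 (among them Insig1, Hsd17b7, Cyp51 and Fasn) and rose in none, and the number was 3 without CM replicate 2, 3 or 4. Of 19 genes of glycolysis and glucose uptake, 3 fell, 1 rose and 15 were not called, beside 5.91% and 4.5% of all tested genes: the glucose transporter Slc2a3 (-0.77 ± 0.19), hexokinase Hk2 (-0.69 ± 0.23) and the lactate transporter Slc16a1 fell, and the lactate exporter Slc16a3 rose (1.45 ± 0.36, at 10.6 to 14.6 CPM against 2.86 to 6.06). Of 9 tested genes of a metal response list, 1 rose, 1 fell and 7 were not called. Fth1, the ferritin heavy chain that stores iron, stood at 1576 to 2038 CPM with CM and 817.1 to 1251 without (0.83 ± 0.19), and Tfrc, the transferrin receptor that takes iron up, at 132.8 to 204.2 against 201.3 to 371.6 (-0.89 ± 0.16). Among 15 glucocorticoid targets, Tsc22d3 (GILZ), Ddit4 and Zbtb16 rose and Klf9 fell.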
